A study of Mus musculus with 8 samples.

Results

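Autophagy machinery genes, a set of 38 genes that cover the steps of autophagosome formation, were followed across 8 RNA-seq libraries of primary mouse microglia. The members were listed by name and by the step in which they act, with earlier results of these data known. Measured values entered the rule through a minimum level and, where a gene has several models, through the highest mean. Each of the 38 had a gene model in the deposited table of 54419 models. Each held at least 1 FPKM (fragments per kilobase of a gene, relative to all mapped fragments) in at least 2 libraries, so 38 of 38 were among the 11146 named models tested. Microglia, the resident macrophages of the brain, came from C57BL/6 mice at postnatal day 2. Cells received the activation plasmid ACT-PARP14, a CRISPR tool meant to switch on PARP14, or its control ACT-Con for 24 h. Oxygen-glucose deprivation (OGD), which mimics stroke in culture, was applied for 6 h. The libraries labelled OGD_PARP14 carried the activation plasmid and had OGD, those labelled OGD_Con carried the control plasmid and had OGD, those labelled PARP14 carried the activation plasmid alone, and those labelled Con carried the control plasmid alone, with 2 libraries each. The treatment text names OGD for all 8 libraries, but only the OGD_PARP14 and OGD_Con titles hold the word, and the titles decided the groups. The series text speaks of 2 independent experiments without tying libraries to them, so p-values rest on library-to-library spread that may be technical only.

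Autophagy encloses cytoplasm in a double membrane that fuses with the lysosome, and starved cells use it to recover building blocks. The ULK1 kinase complex starts the process, and a phosphatidylinositol 3-kinase complex built on Beclin 1 and VPS34 marks the membrane with PI3P. WIPI proteins read that lipid, ATG2 and ATG9 bring in membrane lipid, and conjugation enzymes related to those of ubiquitin attach LC3 and GABARAP proteins to the membrane. Receptors such as p62 tie ubiquitin-tagged cargo to LC3. In microglia some of these proteins also take part in the clearance of engulfed material. Much of the control of autophagy acts on proteins and not on messenger RNA, and the libraries measured RNA only.

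Parp14, which encodes the ADP-ribosyltransferase that the activation plasmid is aimed at, went against the labels. Its gene model, listed as Gm49730 with 3 of 4 transcripts from Parp14, held 55.8 and 54.6 FPKM in the libraries labelled OGD_PARP14, 12.5 and 53.7 FPKM in OGD_Con, 12.2 and 11.5 FPKM in PARP14, and 61.4 and 50.7 FPKM in Con. Both libraries labelled PARP14 thus lay below both labelled Con, and every direction between plasmids rests on the labels alone. OGD_PARP14 replicate 2 was unlike the other 7 libraries: its Pearson correlations with them over the models tested were 0.880 to 0.903, while those among the 7 began at 0.945. Its microglial marker genes summed to 1079.6 FPKM, against 448.1 to 575.1 FPKM in the other 7. Csf1r was highest there, whereas Tmem119 (1.88 FPKM, against 5.22 to 12.5) and Aif1 (22.8 FPKM, against 50.0 to 62.2) were lowest there. Summed FPKM of the other marker lists in that library, with the range of the other 7, were 4.64 (4.77 to 7.25) for astrocytes, 2.46 (3.32 to 4.17) for neurons, 10.4 (6.08 to 6.99) for the oligodendrocyte lineage, 4.14 (4.89 to 7.52) for endothelium, 0.936 (0.164 to 0.648) for fibroblast and mural cells and 1.15 (0.184 to 0.653) for peripheral leukocytes. Among the endothelial genes Pecam1 was far lower there, at 0.159 FPKM (4.25 to 6.97 in the other 7), while Kdr at 2.27 FPKM (0.102 to 0.324), Flt1 at 1.59 FPKM (0.128 to 0.275) and Cdh5 at 0.122 FPKM (0.0159 to 0.0788) were higher there than in any other library. The part of these differences in the results was not tested. Cd3e, a defining T cell gene, was listed at 0 in every library. In bulk RNA, fewer cells of a type and less RNA per cell cannot be told apart.

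With OGD, differences in RNA level were spread over most steps and went in both directions. In the libraries labelled with the control plasmid, Sqstm1, Atg14, Atg12, Wipi1, Ulk1 and Atg13 were higher, and Atg101, Vmp1, Ulk2 and Atg4d were lower, in both OGD_Con libraries than in both Con libraries. None of the 38 passed an adjusted p of 0.05 (limma on log2(FPKM + 1), adjusted over all models tested) with all 8 libraries, where 0.269% of all models passed. In that fit an unadjusted p under 0.05 was found for 10 members and for 2144 models in all (19.2%), and the smallest adjusted p of a member was 0.0774, for Vmp1. Without OGD_PARP14 replicate 2, which enters this comparison only through the shared spread, limma called the 10 members just named, 6 higher and 4 lower. That is 26.3% of the members, against a background of 23.1% of all models (10.7% higher, 12.4% lower), so the share was close to that of all genes. The median log2 fold change was 0.04 over the members and -0.02 over all models, and 22 of 38 members had a positive one. "Rose" and "fell" are used here of genes past the threshold in this fit of 7 libraries. Fold changes on the log2(FPKM + 1) scale understate the change of low genes.

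**Figure D1:**
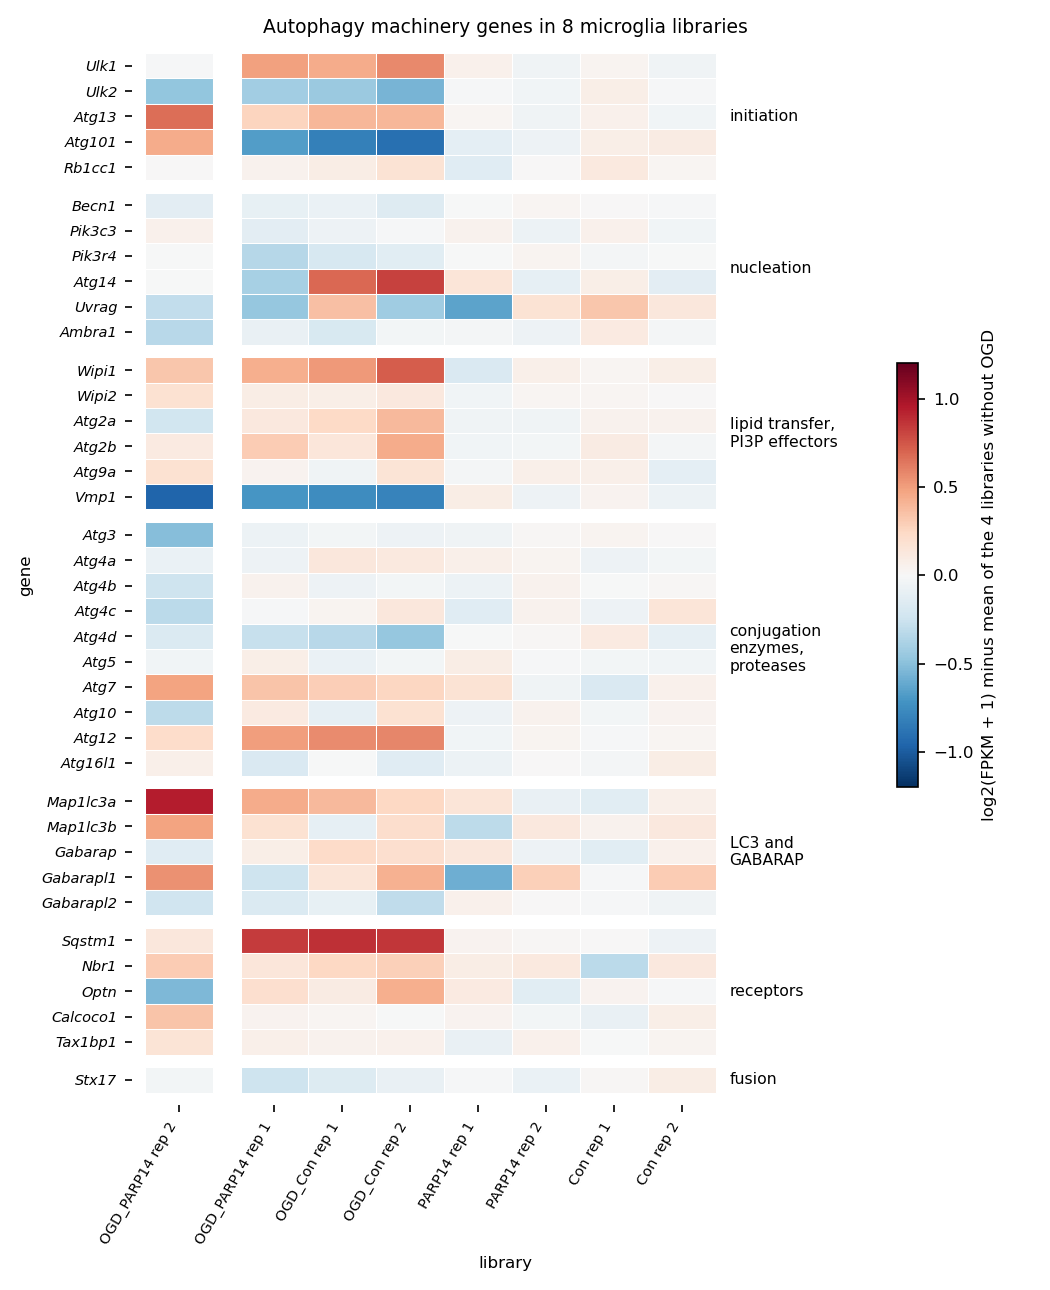
Autophagy machinery genes by library. Each cell is log2(FPKM + 1) of a gene (vertical axis, ordered by step) in a library (horizontal axis) minus the mean of the 4 libraries without OGD, with red for higher and blue for lower. OGD_PARP14 replicate 2 is set apart at the left. Sqstm1, Atg12, Ulk1 and Wipi1 are red and Vmp1, Ulk2 and Atg101 blue in the other 3 OGD libraries, and Atg101 is red in OGD_PARP14 replicate 2.

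Promoter sequences are printed for 3 of the 4 members that limma called in both OGD comparisons. Each is a window of 250 bases before to 50 bases after a RefSeq gene start on GRCm38.p6, written 5′ to 3′ along the gene. Windows were searched on both strands for ACGTG and GCGTG, the core letters bound by hypoxia-inducible factors, and for CACGTG, the E-box core bound by TFEB and TFE3, which contains ACGTG. Capitals mark the matches. Atg101, at chr15:101284051-101284350 on the plus strand, had 1 ACGTG that begins 172 bases before the start. Vmp1 has several windows, of which the first, at chr11:86683787-86684086 on the minus strand, had 1 match to GCGTG, read as its reverse complement, 238 bases before the start. Sqstm1, at chr11:50210771-50211070 on the minus strand, held none of these letters.
Atg101: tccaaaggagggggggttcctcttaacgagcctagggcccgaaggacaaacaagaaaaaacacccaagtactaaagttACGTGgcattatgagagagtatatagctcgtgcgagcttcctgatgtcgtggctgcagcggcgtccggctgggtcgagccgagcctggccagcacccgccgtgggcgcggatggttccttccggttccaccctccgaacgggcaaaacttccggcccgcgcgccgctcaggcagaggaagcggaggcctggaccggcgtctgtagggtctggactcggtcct
Vmp1: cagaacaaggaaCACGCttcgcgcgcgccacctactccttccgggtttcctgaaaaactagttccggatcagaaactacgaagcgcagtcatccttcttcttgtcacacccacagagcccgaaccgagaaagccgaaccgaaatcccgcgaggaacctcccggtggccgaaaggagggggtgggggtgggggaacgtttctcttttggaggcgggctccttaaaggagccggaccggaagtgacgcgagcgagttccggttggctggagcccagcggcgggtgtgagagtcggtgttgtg
Sqstm1: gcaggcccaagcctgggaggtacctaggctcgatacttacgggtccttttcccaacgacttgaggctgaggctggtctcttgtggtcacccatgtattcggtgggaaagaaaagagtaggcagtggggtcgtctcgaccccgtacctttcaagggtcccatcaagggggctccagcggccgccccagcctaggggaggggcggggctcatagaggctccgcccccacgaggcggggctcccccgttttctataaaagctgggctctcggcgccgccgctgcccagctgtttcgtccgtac

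Of the 38 members, 32 matched the RefSeq promoter table, with 38 windows in all because 5 members have more than 1. ACGTG was in 15 of the 38 windows (39.5%), against 26.4% of the 10363 windows of tested genes and 19.6% of all 32851 windows. GCGTG was in 25 (65.8%), against 50.7% and 32.4%. CACGTG was in 4 (10.5%), against 10.5% and 7.15%. These shares describe letters in the windows and were not tested.

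Initiation had 4 of its 5 genes called in OGD_Con against Con without OGD_PARP14 replicate 2, 2 higher and 2 lower. In that fit 23.1% of all models were called, and with all 8 libraries 0 of the 5 genes were. Ulk1, which encodes the kinase that starts autophagy (chr5:110784488-110810097, minus strand), held 8.91 and 5.99 FPKM in OGD_PARP14, 8.59 and 9.51 FPKM in OGD_Con, 6.36 and 5.80 FPKM in PARP14, and 6.22 and 5.82 FPKM in Con. The other 3 OGD libraries lay above all 4 libraries without OGD, and OGD_PARP14 replicate 2 lay among those without OGD. Ulk1 averaged 9.05 ± 0.648 FPKM in OGD_Con and 6.02 ± 0.287 FPKM in Con (SD, n = 2 each), and it rose by a log2 fold change of 0.52 (SE 0.09, limma adjusted p = 0.0171 without OGD_PARP14 replicate 2, 0.208 with all 8 libraries).

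Ulk2, which encodes a closely related kinase (chr11:61775649-61855073, minus strand), went the other way in the same libraries. It held 18.9 and 18.1 FPKM in OGD_PARP14, 18.5 and 17.0 FPKM in OGD_Con, 25.2 and 24.7 FPKM in PARP14, and 26.9 and 25.3 FPKM in Con. Every OGD library, OGD_PARP14 replicate 2 included, lay below all 4 without OGD. Ulk2 fell by 0.53 in OGD_Con against Con (log2, SE 0.08, limma adjusted p = 0.0121 without OGD_PARP14 replicate 2, 0.0973 with all 8 libraries). FPKM is per length, so levels of the kinases can be set side by side: Ulk2 was higher than Ulk1 in every library.

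Atg13 and Atg101 encode partner subunits of the complex that bind each other, and they moved in opposite directions. Atg13 (chr2:91674618-91710576, minus strand) held 12.8 and 17.3 FPKM in OGD_PARP14, 14.1 and 14.1 FPKM in OGD_Con, 10.7 and 10.1 FPKM in PARP14, and 10.998 and 10.2 FPKM in Con. All 4 OGD libraries lay above all 4 without OGD, with OGD_PARP14 replicate 2 the highest. Atg13 rose by 0.38 in OGD_Con against Con (log2, SE 0.07, limma adjusted p = 0.0236 without OGD_PARP14 replicate 2, 0.253 with all 8 libraries). Atg101 (chr15:101284272-101290945, plus strand) held 7.30 and 17.1 FPKM in OGD_PARP14, 6.51 and 6.09 FPKM in OGD_Con, 11.2 and 11.7 FPKM in PARP14, and 13.0 and 13.2 FPKM in Con. The other 3 OGD libraries were the lowest, and OGD_PARP14 replicate 2 was the highest of all 8, above both Con libraries. Atg101 averaged 6.30 ± 0.293 FPKM in OGD_Con and 13.1 ± 0.137 FPKM in Con (SD, n = 2 each) and fell by 0.95 (log2, SE 0.07, limma adjusted p = 0.00259 without OGD_PARP14 replicate 2, 0.214 with all 8 libraries). Rb1cc1, which encodes the scaffold FIP200, was the lowest of the complex at 1.45 to 2.05 FPKM, and its groups overlapped.

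Among the 6 nucleation genes only Atg14 was called in OGD_Con against Con, and it had the widest log2 fold change of the 38 between the OGD groups. Atg14 (chr14:47540893-47570649, minus strand) encodes the subunit that directs the Beclin 1 and VPS34 kinase complex to autophagosome formation. It held 4.17 and 5.79 FPKM in OGD_PARP14, 9.99 and 10.98 FPKM in OGD_Con, 6.57 and 5.30 FPKM in PARP14, and 6.19 and 5.23 FPKM in Con. Both OGD_Con libraries lay above all 6 others, and OGD_PARP14 replicate 1 was the lowest of the 8. Atg14 averaged 10.5 ± 0.701 FPKM in OGD_Con and 5.71 ± 0.676 FPKM in Con (SD, n = 2 each) and rose by 0.78 (log2, SE 0.13, limma adjusted p = 0.0161 without OGD_PARP14 replicate 2, 0.121 with all 8 libraries). In the libraries labelled OGD_PARP14 against OGD_Con its log2 fold change was -0.95 with all 8 libraries (SE 0.18, limma adjusted p = 0.571) and -1.15 without OGD_PARP14 replicate 2 (SE 0.16, limma adjusted p = 0.265). The interaction of OGD and plasmid was -1.0 with all 8 libraries (SE 0.25, limma adjusted p = 0.824). Neither passed.

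Most of the other nucleation genes showed little movement or uneven values. Becn1, which encodes Beclin 1, held 10.7 to 12.2 FPKM in the 8 libraries, with all 4 OGD libraries below all 4 without OGD by a narrow margin (log2 fold change in OGD_Con against Con -0.11, limma adjusted p = 0.283 without OGD_PARP14 replicate 2). Pik3c3, which encodes VPS34, held 8.68 to 10.0 FPKM, and Ambra1, a Beclin 1 regulator, 9.42 to 13.1 FPKM. Pik3r4, which encodes the VPS15 scaffold, held 3.14 and 4.22 FPKM in OGD_PARP14, 3.54 and 3.77 FPKM in OGD_Con, 4.21 and 4.36 FPKM in PARP14, and 4.15 and 4.19 FPKM in Con. Apart from OGD_PARP14 replicate 2, its OGD libraries lay below all 4 without OGD. The log2 fold change was -0.15 in OGD_Con against Con and -0.35 in OGD_PARP14 replicate 1 against PARP14. With both OGD_PARP14 libraries the latter was -0.18 (SE 0.14, limma adjusted p = 0.543 with all 8 libraries). Uvrag, which encodes an alternative partner of the same kinase, differed more within groups than between them. It held 3.68 and 4.26 FPKM in OGD_PARP14, 7.30 and 3.80 FPKM in OGD_Con, 3.16 and 6.30 FPKM in PARP14, and 7.12 and 6.11 FPKM in Con. Its widest gap within OGD_Con, PARP14 or Con was 0.81 on the log2 scale, against a range of 0.62 over the 4 group means.

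Of the 6 lipid transfer and PI3P effector genes, Wipi1 rose and Vmp1 fell in OGD_Con against Con. Vmp1 encodes an endoplasmic reticulum protein that moves lipid between membrane leaflets (chr11:86583865-86683821, minus strand), and its model is joined with Mir21a, so the value stands for both. It held 26.5 and 22.1 FPKM in OGD_PARP14, 25.6 and 24.8 FPKM in OGD_Con, 46.9 and 42.0 FPKM in PARP14, and 45.2 and 41.9 FPKM in Con. The OGD libraries, OGD_PARP14 replicate 2 among them, all lay well below all 4 without OGD. Vmp1 averaged 25.2 ± 0.50 FPKM in OGD_Con and 43.5 ± 2.29 FPKM in Con (SD, n = 2 each) and fell by 0.76 (log2, SE 0.09, limma adjusted p = 0.00672 without OGD_PARP14 replicate 2).

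Wipi1, which encodes a PI3P-binding propeller protein (chr11:109573331-109611967, minus strand), was among the lowest members. It held 2.42 and 2.18 FPKM in OGD_PARP14, 2.61 and 3.17 FPKM in OGD_Con, 1.23 and 1.66 FPKM in PARP14, and 1.57 and 1.67 FPKM in Con. Each OGD library lay above all 4 without OGD. It rose by 0.57 in OGD_Con against Con (log2, SE 0.12, limma adjusted p = 0.0302 without OGD_PARP14 replicate 2, 0.13 with all 8 libraries). Wipi2, which encodes the WIPI protein that recruits ATG16L1, was at 3.63 to 4.42 FPKM. Atg2a and Atg2b encode lipid-transfer proteins and were at 6.14 to 10.0 and 1.80 to 2.91 FPKM. Atg9a, which encodes the scramblase of the vesicles that seed the membrane, shares a model with Abcb6 and Gm29253 and was at 2.99 to 3.93 FPKM. None of these 4 passed, although Wipi2 and Atg2b were higher in all 4 OGD libraries than in all 4 without OGD.

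Of the 10 conjugation enzymes and proteases, Atg12 rose and Atg4d fell in OGD_Con against Con. Atg12 encodes the ubiquitin-like protein that is joined to ATG5 to form the ligase for LC3. It held 13.5 and 10.9 FPKM in OGD_PARP14, 14.2 and 14.4 FPKM in OGD_Con, 8.98 and 9.51 FPKM in PARP14, and 9.14 and 9.40 FPKM in Con. No OGD library overlapped those without OGD, and OGD_PARP14 replicate 2 was the lowest with OGD. Atg12 averaged 14.3 ± 0.104 FPKM in OGD_Con and 9.27 ± 0.188 FPKM in Con (SD, n = 2 each), a rise of 0.57 (log2, SE 0.07, limma adjusted p = 0.00747 without OGD_PARP14 replicate 2, 0.112 with all 8 libraries). Its partners in the ligase showed no such step: Atg5 held 15.6 to 17.7 FPKM and Atg16l1 3.19 to 4.06 FPKM, with overlapping groups.

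Atg4d encodes a protease of the family that trims LC3 and GABARAP proteins and frees them from membranes. It held 2.04 and 2.27 FPKM in OGD_PARP14, 1.93 and 1.68 FPKM in OGD_Con, 2.67 and 2.72 FPKM in PARP14, and 2.98 and 2.41 FPKM in Con. All 4 OGD libraries lay below all 4 without OGD, and the fall of 0.40 on the log2 scale in OGD_Con against Con was just past the threshold (SE 0.10, limma adjusted p = 0.0482 without OGD_PARP14 replicate 2, 0.178 with all 8 libraries). Of the other proteases, Atg4a held 7.06 to 8.35 FPKM, Atg4b 4.60 to 5.90 FPKM and Atg4c 4.70 to 6.93 FPKM, and none passed. Atg7 encodes the E1-like activating enzyme and held 5.21 and 5.86 FPKM in OGD_PARP14, 5.01 and 4.85 FPKM in OGD_Con, 4.52 and 3.73 FPKM in PARP14, and 3.32 and 4.10 FPKM in Con. Its OGD libraries lay above the others without passing (log2 fold change in OGD_Con against Con 0.34, limma adjusted p = 0.104 without OGD_PARP14 replicate 2). Atg3 and Atg10, which encode the E2-like enzymes for LC3 and for ATG12, held 16.9 to 24.9 and 3.53 to 5.39 FPKM.

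**Figure D2:**
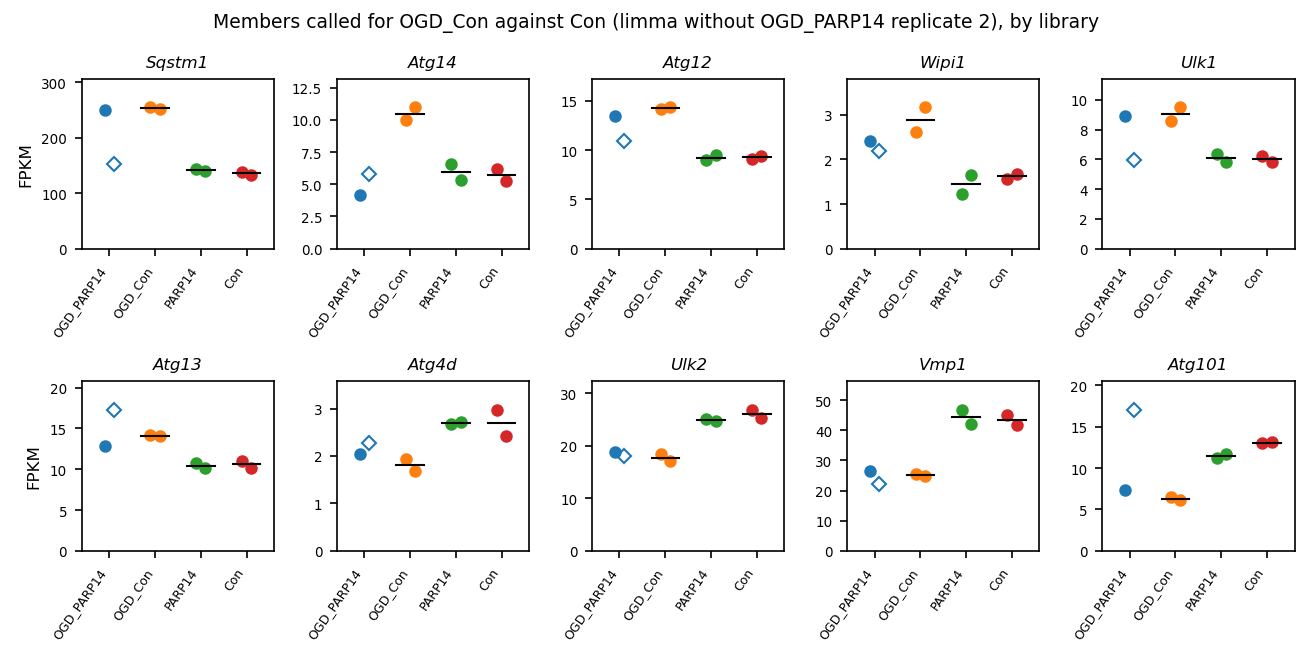
The 10 members called in OGD_Con against Con without OGD_PARP14 replicate 2. Points are FPKM of single libraries on a linear axis from 0, by group, the open diamond is OGD_PARP14 replicate 2, and bars are means of 2 libraries. Sqstm1, Ulk1 and Atg101 in that library stand away from OGD_PARP14 replicate 1, whereas Vmp1 and Ulk2 stay close to it.

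None of the 5 LC3 and GABARAP genes, the ubiquitin-like proteins that coat the autophagosome, was called in any comparison with all 8 libraries or without OGD_PARP14 replicate 2. Map1lc3a held 10.1 and 14.7 FPKM in OGD_PARP14, 9.65 and 8.68 FPKM in OGD_Con, 8.08 and 6.67 FPKM in PARP14, and 6.44 and 7.54 FPKM in Con. Its 4 OGD libraries lay above all 4 without OGD, and the log2 fold change in OGD_Con against Con was 0.35 (SE 0.12, limma adjusted p = 0.103 without OGD_PARP14 replicate 2). Map1lc3b, the LC3 form most used as a marker of autophagosomes, held 16.1 and 19.9 FPKM in OGD_PARP14, 12.9 and 16.4 FPKM in OGD_Con, 11.1 and 15.4 FPKM in PARP14, and 14.6 and 15.4 FPKM in Con. The OGD_Con and Con libraries overlapped (log2 fold change -0.04, SE 0.18, limma adjusted p = 0.889 without OGD_PARP14 replicate 2).

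Gabarap had the highest level of the 5, in a model joined with its neighbour Ctdnep1. It held 87.9 and 75.1 FPKM in OGD_PARP14, 98.1 and 95.7 FPKM in OGD_Con, 91.7 and 79.9 FPKM in PARP14, and 75.9 and 86.9 FPKM in Con. OGD_Con lay above Con without passing (0.25, SE 0.11, limma adjusted p = 0.151 without OGD_PARP14 replicate 2). Gabarapl1 was the most uneven, at 32.4 and 56.9 FPKM in OGD_PARP14, 43.2 and 52.3 FPKM in OGD_Con, 25.4 and 47.3 FPKM in PARP14, and 38.3 and 48.0 FPKM in Con. The library numbered 1 was the lower in every group, and the widest gap within OGD_Con, PARP14 or Con was 0.87 on the log2 scale, against a range of 0.44 over the 4 group means. Gabarapl2, also known as GATE-16, held 26.8 and 25.5 FPKM in OGD_PARP14, 28.2 and 24.3 FPKM in OGD_Con, 31.6 and 30.3 FPKM in PARP14, and 29.9 and 29.2 FPKM in Con. The 4 OGD libraries were lower by a small margin (OGD_Con against Con -0.17, SE 0.09, limma adjusted p = 0.236 without OGD_PARP14 replicate 2).

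Among the 5 receptor genes, Sqstm1 stood far above the others in level and was the only one called. Sqstm1 encodes p62, which binds ubiquitin and LC3 (chr11:50199366-50211574, minus strand). It held 248.98 and 152.1 FPKM in OGD_PARP14, 254.8 and 251.1 FPKM in OGD_Con, 142.7 and 139.7 FPKM in PARP14, and 138.6 and 132.8 FPKM in Con. The other 3 OGD libraries lay within a narrow band at the top, and OGD_PARP14 replicate 2 lay not far above the 4 libraries without OGD. Sqstm1 averaged 252.9 ± 2.66 FPKM in OGD_Con and 135.7 ± 4.10 FPKM in Con (SD, n = 2 each) and rose by 0.89 (log2, SE 0.07, limma adjusted p = 0.00259 without OGD_PARP14 replicate 2, 0.138 with all 8 libraries).

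The other receptors had small positive log2 fold changes in OGD_Con against Con, and none passed. Nbr1, a p62-like receptor, held 18.9 and 21.2 FPKM in OGD_PARP14, 20.3 and 20.9 FPKM in OGD_Con, 18.1 and 18.5 FPKM in PARP14, and 13.4 and 18.6 FPKM in Con. The single low Con library both raised the log2 fold change and widened its error (0.37, SE 0.17, limma adjusted p = 0.302 with all 8 libraries). In OGD_PARP14 replicate 1 against PARP14 the log2 fold change of Nbr1 was 0.05. Optn, which encodes the mitophagy receptor optineurin, held 8.22 and 4.51 FPKM in OGD_PARP14, 7.57 and 9.86 FPKM in OGD_Con, 7.61 and 6.30 FPKM in PARP14, and 7.24 and 6.96 FPKM in Con, with OGD_PARP14 replicate 2 the lowest. Calcoco1, an endoplasmic reticulum receptor, held 5.60 to 7.95 FPKM, and Tax1bp1, which binds ubiquitinated cargo, 12.9 to 15.7 FPKM. Stx17, which encodes the SNARE protein of autophagosome fusion with the lysosome, held 4.61 and 5.51 FPKM in OGD_PARP14, 4.94 and 5.25 FPKM in OGD_Con, 5.57 and 5.29 FPKM in PARP14, and 5.73 and 6.06 FPKM in Con, and it did not pass.

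In the libraries labelled with the activation plasmid, the comparison of OGD_PARP14 with PARP14 gave fewer calls. With all 8 libraries limma called 0 of 38 members, where 0.215% of all models passed; an unadjusted p under 0.05 was found for 7 members (18.4%) and 1617 models (14.5%). Without OGD_PARP14 replicate 2 the group is a lone library, assumed to vary like the others. Sqstm1 (0.81, SE 0.08, limma adjusted p = 0.00898) and Atg12 (0.50, SE 0.08, limma adjusted p = 0.0297) rose there. Vmp1 (-0.72, SE 0.11, limma adjusted p = 0.0216) and Atg101 (-0.59, SE 0.09, limma adjusted p = 0.0223) fell. These 4 members are 10.5% of the set, against a background of 10.7% of all models (5.54% higher, 5.17% lower). All 4 were also called in OGD_Con against Con with the same sign, that is 100% of the calls in OGD_PARP14 against PARP14 and 40% of those in OGD_Con against Con. Over all models the same-sign shares were 89.9% and 41.7%, so the overlap was close to that of all genes. With OGD_PARP14 replicate 2 included, the log2 fold change was 0.46 for Sqstm1 (SE 0.23, limma adjusted p = 0.40), -0.85 for Vmp1 (SE 0.13, limma adjusted p = 0.103), -0.02 for Atg101 (SE 0.34, limma adjusted p = 0.981) and 0.36 for Atg12 (SE 0.12, limma adjusted p = 0.290). The remaining 6 genes called in OGD_Con against Con did not pass in the lone library, and Ulk1 came nearest (0.49, SE 0.11, limma adjusted p = 0.0508). Of these 6 only Atg14 had the opposite sign (-0.42, SE 0.16, limma adjusted p = 0.153).

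**Figure D3:**
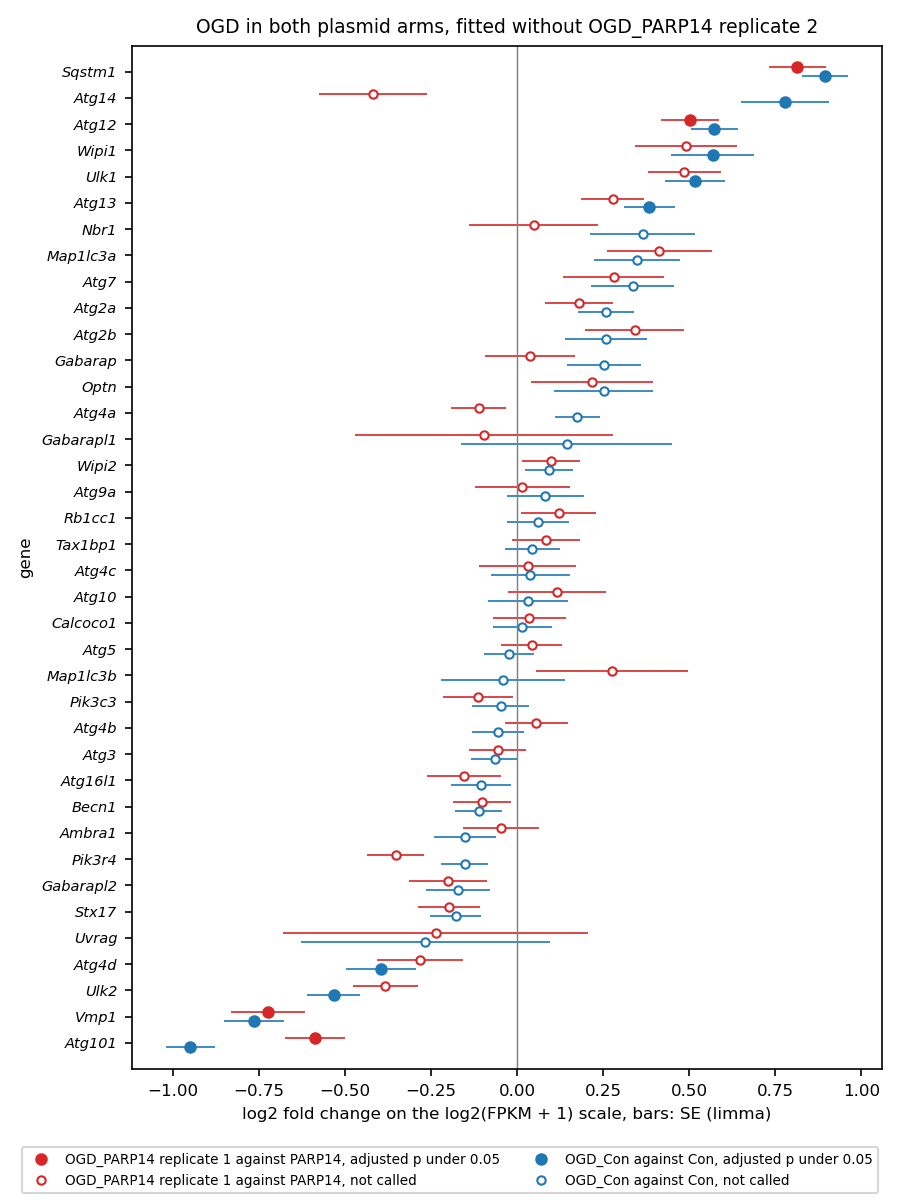
Log2 fold changes of the 38 members with OGD, on the log2(FPKM + 1) scale, with SE as bars, from limma without OGD_PARP14 replicate 2. Red is OGD_PARP14 replicate 1 against PARP14 and blue is OGD_Con against Con, and filled points have an adjusted p under 0.05. Sqstm1, Atg12, Vmp1 and Atg101 are filled in both, and Atg14 lies on opposite sides of 0.

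Between plasmids no member passed. In OGD_PARP14 against OGD_Con limma called 0 of 38 with all 8 libraries, where 0% of all models passed, and an unadjusted p under 0.05 was found for 2 members (5.26%, against 3.47% of all models). Without OGD_PARP14 replicate 2 it also called 0, against 0.0987% of all models, with 1 member at an unadjusted p under 0.05 (2.63%, against 3.4% of all models). In PARP14 against Con it called 0 of 38 in both fits, against 0.00897% of all models with 8 libraries and 0.0538% with 7, and 0 members had an unadjusted p under 0.05 in either, against 0.987% and 2.98% of all models. For the interaction it called 0 in both fits, against 0.00897% with 8 libraries and 0.0807% with 7, with an unadjusted p under 0.05 for 1 member with 8 libraries (2.63%, against 1.89% of all models) and for 3 with 7 (7.89%, against 3.44%).

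OGD_PARP14 replicate 2 lay outside the other 3 OGD libraries in 32 of 38 members (84.2%), about as often as in all models (84.1%). It lay above all 3 in 16 of 38 members (42.1%), against 34.4% of all models, and below all 3 in 16 (42.1%), against 49.6% of all models. The widest log2 differences from the mean of those 3 were 1.25 for Atg101, 0.58 for Map1lc3a and 0.43 for Gabarapl1 on the high side, and -0.79 for Optn, -0.72 for Sqstm1 and -0.52 for Ulk1 on the low side. Among the members called in OGD_Con against Con, Sqstm1, Atg12, Atg13 and Wipi1 still lay above all 4 libraries without OGD in OGD_PARP14 replicate 2. Vmp1, Ulk2 and Atg4d still lay below them. Ulk1 and Atg14 lay among those libraries, and Atg101, lower in the other OGD libraries, lay above them. In the other 3 OGD libraries 11 members (28.9%) lay above all 4 libraries without OGD, against 22.1% of all models, and 8 (21.1%) lay below, against 26.7%.

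Genes that surround the core machinery were read for comparison, from lists of 62 regulators, receptors and fusion factors, of which 57 were tested. With all 8 libraries limma called 0 of them with OGD in either plasmid arm, with 12 at an unadjusted p under 0.05 in OGD_Con against Con (21.1%, against 19.2% of all models) and 10 in OGD_PARP14 against PARP14 (17.5%, against 14.5%). Without OGD_PARP14 replicate 2 limma called 21 of 57 in OGD_Con against Con, 16 higher and 5 lower (36.8%, against 23.1% of all models). In OGD_PARP14 against PARP14 it called 10, with 6 higher and 4 lower (17.5%, against 10.7% of all models). It called none of the 57 in the other comparisons.

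The mitophagy list had 2 of 7 higher and 1 lower in OGD_Con against Con. Bnip3, a mitochondrial receptor for LC3 and a hypoxia-induced gene, held 80.6 and 6.15 FPKM in OGD_PARP14, 75.9 and 83.7 FPKM in OGD_Con, 9.13 and 8.88 FPKM in PARP14, and 9.30 and 10.5 FPKM in Con. OGD_PARP14 replicate 2 was the lowest of all 8 libraries, and the other 3 OGD libraries were far above the rest. It rose by 2.89 in OGD_Con against Con (log2, SE 0.09, limma adjusted p = 0.000389 without OGD_PARP14 replicate 2). Its relative Bnip3l rose by 0.31 (SE 0.08) and Bcl2l13, another mitochondrial receptor, fell by 0.33 on the log2 scale (SE 0.08). Of the 9 other selective receptors 4 rose, namely Tollip (0.68), the glycogen receptor gene Stbd1 (0.54), the reticulophagy receptor gene Retreg1 (0.52) and the ferritin receptor gene Ncoa4 (0.33).

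Of 17 genes of the TFEB family and of mTORC1 and AMPK control, 5 rose and 2 fell in OGD_Con against Con without OGD_PARP14 replicate 2. The largest log2 fold changes were 1.12 for Fnip1 and 1.05 for Flcn, which encode partners in the folliculin complex, and 1.02 each for Foxo3, a transcription factor of autophagy genes, and Ddit4, which encodes the mTORC1 inhibitor REDD1. Ddit4 held 71.1 and 0.701 FPKM in OGD_PARP14, 71.4 and 80.1 FPKM in OGD_Con, 35.7 and 40.4 FPKM in PARP14, and 34.4 and 39.5 FPKM in Con. OGD_PARP14 replicate 2 was again the lowest, here far below every other library. Of 11 accessory factors 2 rose, Tmem41b (0.80), which encodes a scramblase that works with VMP1, and Sh3glb1 (0.30). Tmem41b and Vmp1 thus had opposite signs. Of 13 fusion partners 3 rose and 2 fell. Vps18, a subunit of the HOPS tether, rose by 0.54, while the SNARE genes Ykt6 and Snap29 fell by 0.69 and 0.54 on the log2 scale. Rab7, which encodes a late endosome GTPase, has 2 deposited models under that name, and the one with the higher mean was read. It fell by 0.72 in the lone OGD_PARP14 library against PARP14, and its value in OGD_Con against Con was -0.01. In OGD_PARP14 it held 88.8 and 164.8 FPKM, the lowest and the highest of the 8 libraries, and with both libraries the log2 fold change against PARP14 was -0.28 (SE 0.29, limma adjusted p = 0.658). The interaction for Rab7 did not pass (-0.71, SE 0.18, limma adjusted p = 1.000 without OGD_PARP14 replicate 2).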

How the data were processed

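Expression was measured in 8 libraries, and the deposited values are FPKM per gene model, per the file headers. HISAT, StringTie and edgeR, and the build mm9, are what the authors used, per the submitters' processing notes. Of 39015 models with an Ensembl identifier, 37538 (96.2%) have GENCODE M21 coordinates, which are on GRCm38, so coordinates are as deposited. StringTie can join neighbouring genes in a model, which then gives 1 value for all of them; this holds for 3 members. Spacing of the smallest values gave a depth of 13.4 to 17.0 M fragments, so that a model 1 kb long with 1 FPKM rests on 13 to 17 fragments.

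A gene was matched by its exact model name first, then by a joined name, and then by the highest mean. Named models with at least 1 FPKM in at least 2 libraries were tested as log2(FPKM + 1) in limma, with 4 group means and 1 shared spread, since the values are no counts. A Benjamini-Hochberg adjusted p under 0.05 over 11146 models was a call. The same fit without OGD_PARP14 replicate 2 stands beside it. Members, lists, motifs and alternatives were chosen with earlier results of these data known. Values per library are printed for called members and for LC3 and GABARAP genes, the rest as ranges; up to 4 called genes per surrounding list are named. The remaining members whose library values are printed were chosen after their values were seen. The fits were tested on simulated data. R 4.3.3, limma 3.58.1, the data.table package (1.17.8), Python 3.11.15, pandas 2.3.3 and matplotlib 3.10.9 were used. Alternatives were a replicate block, other filters, pseudocounts and scalings, an intensity trend, only the libraries compared, and each library left out.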

Additional observations from a re-analysis of the deposited data

Results flagged for a closer look

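Atg4a, which encodes a protease that processes GABARAP proteins, had log2 fold changes of opposite sign with OGD in the 2 plasmid arms, and it is described for that pattern. Neither passed. It held 7.13 and 7.06 FPKM in OGD_PARP14, 8.35 and 8.20 FPKM in OGD_Con, 7.89 and 7.67 FPKM in PARP14, and 7.13 and 7.31 FPKM in Con. Both OGD_PARP14 libraries lay below both labelled PARP14, and both OGD_Con libraries lay above both labelled Con. With all 8 libraries the log2 fold change was -0.12 in OGD_PARP14 against PARP14 (SE 0.09, limma adjusted p = 0.571) and 0.17 in OGD_Con against Con (SE 0.09, limma adjusted p = 0.372). The interaction of OGD and plasmid was -0.29 (log2, SE 0.13, limma adjusted p = 0.824 with all 8 libraries), so it did not pass. Without OGD_PARP14 replicate 2 it was -0.29 as well (SE 0.10, limma adjusted p = 1.000).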

How the results depend on the processing

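With all 8 libraries limma called 0 members in every comparison, and so it did with the replicate block, without a filter, with a filter at 5 FPKM (30 of 38 members tested), with pseudocounts of 0.1 and 5, with quantile normalization, median centring and an intensity trend. Without a filter limma warned that most residual variances were 0. Fitting only the libraries compared gave 9 members in OGD_Con against Con (23.7%, against 16.1% of all models). For OGD_Con against Con, leaving out either OGD_PARP14 library is the same calculation, since the lone library left adds nothing to the spread. Leaving out 1 library at a time gave 0 to 10 members there, and 10 only without an OGD_PARP14 library (26.3%, all models 23.1%). It gave 0 to 6 in OGD_PARP14 against PARP14 (6 without OGD_PARP14 replicate 1, 15.8% against 31.4% of all models; 4 without replicate 2, 10.5% against 10.7%), 0 to 9 in OGD_PARP14 against OGD_Con (9 without OGD_PARP14 replicate 1, 23.7% against 41.8%) and 0 to 5 for the interaction (5 without OGD_PARP14 replicate 1, 13.2% against 29.6%). In PARP14 against Con it gave 0 throughout. Those fits leave OGD_PARP14 as a lone library, assumed to vary like the others, and without replicate 1 that library is the one that stood apart. Without OGD_PARP14 replicate 1, Atg101 in OGD_PARP14 against PARP14 turned to 0.54 on the log2 scale, and without replicate 2 it was -0.59; the cause was not tested. Over 15 named members, 1250 alternative values gave 1202 that stayed uncalled, 47 that newly passed and 1 that turned, and 51 changed sign. No value passed with all 8 libraries, so none could cease to pass, and these counts do not measure how firm a call is. Deviations of same-numbered libraries correlated at 0.0136 to 0.124, so the numbers were not taken to pair libraries; the replicate block called 0 members. Fragments per member were not computed, so which members depth limits most is not ranked.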

Other observations

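The models of 9 members overlap 10 other models with at least 1 FPKM in at least 2 libraries, 8 of them on the opposite strand. These were looked up after the member values were seen, and fragments shared between overlapping models were not tested. The noncoding locus 4930551O13Rik lies within Optn on the opposite strand, from 5037280 to 5041133 on chromosome 2. It held 1.46 and 0.208 FPKM in OGD_PARP14, 1.24 and 1.89 FPKM in OGD_Con, 0.140 and 0 FPKM in PARP14, and 0.137 and 0 FPKM in Con. Mgat4b, which encodes a glycosyltransferase, starts inside the 5′ end of Sqstm1 on the opposite strand, from 50210890 to 50235103 on chromosome 11. It held 20.4 and 24.4 FPKM in OGD_PARP14, 21.1 and 21.7 FPKM in OGD_Con, 16.3 and 13.3 FPKM in PARP14, and 14.2 and 12.8 FPKM in Con. All 4 OGD libraries were above all 4 without OGD for Mgat4b, as they were for Sqstm1. In OGD_PARP14 replicate 2 Mgat4b was the highest of the 8 libraries, whereas Sqstm1, at 152.1 FPKM, was far below the other OGD libraries.

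Map1lc3b lies inside a long model that joins Usp10, Gm20388 and Galnt2 on the same strand, from 119910360 to 124345724 on chromosome 8. That model held 9.09 and 12.01 FPKM in OGD_PARP14, 8.81 and 7.61 FPKM in OGD_Con, 15.4 and 15.2 FPKM in PARP14, and 15.3 and 15.3 FPKM in Con. All 4 OGD libraries were below all 4 without OGD there, whereas Map1lc3b itself overlapped between the groups.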
